A study of Mus musculus with 51 samples.

Results

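Replication-dependent histone genes were described across 8 groups of mouse lung arrays. All probe sets whose gene symbol is H1f1 to H1f5, or H2ac, H2bc, H3c or H4c followed by a number, were taken, with 1 probe set per symbol. This gave 53 genes of 19505 gene symbols on the array (53 of 22206 probe sets). The set held 4 genes of linker histone H1, 13 of H2A, 15 of H2B, 10 of H3 and 11 of H4. The genes were chosen on measured values, as a group with a large difference between crofelemer-treated and other C57BL/6 lungs, so every value of crofelemer against no crofelemer is a description and carries no test.

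Nucleosomes are built from the core histones H2A, H2B, H3 and H4, and H1 binds the linker DNA between them. Replication-dependent histone genes lie in clusters and are switched on together in S phase, when new DNA must be packed. Their messages end in a stem-loop in place of a poly(A) tail and are degraded when replication stops, so their level in a tissue is widely used as a sign of cells in S phase. A few members, among them H1f2, H2bc4 and H2bc21, are also known to give polyadenylated messages in cells that do not divide. Whether this bears on their values here was not tested.

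The arrays measured lung of male mice aged 6 to 8 weeks, all of which had 1% methylene diphenyl diisocyanate (MDI, a polyurethane monomer that sensitizes the airways) put on the skin on 2 occasions, controls included. On days 15, 16, 19 and 20 the airways then received products of MDI reacted together with glutathione (called MDI here) or a control solution in which each was reacted separately, and perfused, lavaged lungs were collected 48 h later than the final dose. Crofelemer, which blocks chloride channels, was instilled intranasally at 4 mg/kg, 4 h ahead of every airway exposure. Arrays came from C57BL/6 mice given crofelemer and MDI (3) or crofelemer and control (5, for which one label names only crofelemer as the airway exposure), C57BL/6 mice given MDI (13) or control (6), B-cell deficient mice of strain B6.129S2-Ighmtm1Cgn/J, whose disrupted immunoglobulin mu heavy chain gene blocks B cell development, given MDI (7) or control (9), and Balb/c mice given MDI (3) or control (3).

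Values are deposited log2 signals, and a difference of 1 is a doubling on that scale. A further 2 arrays have labels that contradict each other on crofelemer and stand in no group. The mean over all probe sets lay between 7.43 and 7.48 on the 8 crofelemer arrays, 7.48 and 7.51 on the 19 other C57BL/6 arrays, 8.02 and 8.07 on the B-cell deficient arrays, and 7.37 and 7.40 on the Balb/c arrays. These levels look like separate normalization of the sets, so no levels are compared across strains. The comparison of crofelemer with no crofelemer does cross sets, and crofelemer and any difference of processing between those sets cannot be told apart. In whole lung, a change in the number of cells of a type and a change in RNA per cell cannot be told apart either. Labels name separate samples and do not say whether each is 1 animal, so p-values measure the spread between samples. Lung epithelium markers had a mean level between 17.5 and 18.1 on every array of the groups, and B cell markers lay at 5.14 to 5.65 in B-cell deficient lungs.

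In the mouse genome (GRCm38.p6) the 53 genes fall into 3 clusters, 25 in the distal and 20 in the proximal part of the chromosome 13 region and 8 on chromosome 3. In 7 pairs with both starts in the table, an H2A and an H2B gene are transcribed away from each other from starts 164 to 281 bases apart. The windows below come from RefSeq and run 5′ to 3′ on the strand of the gene, from 250 bases before to 50 bases after its start. Capitals mark, on either strand and at any position, the octamer ATTTGCAT known from H2B promoters and the letters CCAAT and TATAAA of the CCAAT and TATA boxes. In H2ac15 the marked TATAAA lies 21 bases after the annotated start. H2ac15 and H2bc18 are shown for their large differences. H2ac6 and H2ac20 are shown because their windows reach into the neighbouring genes H2bc4 and H2bc21, the only members with a lower mean with crofelemer in both comparisons.
H2ac15, chr13:21753863-21754162, minus strand: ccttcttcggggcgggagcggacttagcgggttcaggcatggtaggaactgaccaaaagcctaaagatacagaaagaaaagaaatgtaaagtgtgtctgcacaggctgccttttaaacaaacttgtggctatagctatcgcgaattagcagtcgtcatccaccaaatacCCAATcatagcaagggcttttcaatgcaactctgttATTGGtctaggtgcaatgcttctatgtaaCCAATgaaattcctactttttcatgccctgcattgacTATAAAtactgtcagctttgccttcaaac
H2bc18, chr3:96269450-96269749, plus strand: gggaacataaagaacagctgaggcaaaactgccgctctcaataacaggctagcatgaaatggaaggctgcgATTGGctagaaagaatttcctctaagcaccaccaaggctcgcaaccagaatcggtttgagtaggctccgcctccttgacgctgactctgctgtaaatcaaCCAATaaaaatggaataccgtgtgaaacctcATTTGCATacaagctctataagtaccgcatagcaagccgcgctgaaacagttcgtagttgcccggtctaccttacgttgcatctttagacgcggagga
H2ac6, chr13:23683910-23684209, minus strand: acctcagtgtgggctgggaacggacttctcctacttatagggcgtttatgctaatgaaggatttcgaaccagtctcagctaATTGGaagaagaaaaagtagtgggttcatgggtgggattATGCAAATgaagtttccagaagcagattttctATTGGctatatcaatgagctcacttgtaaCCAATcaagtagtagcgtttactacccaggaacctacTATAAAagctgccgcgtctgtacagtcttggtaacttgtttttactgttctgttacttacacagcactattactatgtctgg
H2ac20, chr3:96220831-96221130, minus strand: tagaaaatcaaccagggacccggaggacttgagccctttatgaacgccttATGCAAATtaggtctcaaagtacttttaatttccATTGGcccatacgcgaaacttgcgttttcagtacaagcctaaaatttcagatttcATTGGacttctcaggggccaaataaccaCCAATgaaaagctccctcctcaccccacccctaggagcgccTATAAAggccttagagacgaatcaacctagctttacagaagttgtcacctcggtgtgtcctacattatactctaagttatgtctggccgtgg

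Promoter windows were found for 48 of the 53 genes, all but H2bc4, H2bc21, H3c1, H3c7 and H4c14. The octamer ATTTGCAT stood in 12 of the 48 windows (25%), against 1.74% of the 32851 promoter windows of the genome. Those 12 were 6 of 13 H2A and 6 of 13 H2B windows, and no window of the H1, H3 or H4 genes held it. Windows of divergent pairs overlap, so a shared match counts in both. The octamers of H2ac12 and H2bc12, of H2ac8 and H2bc8, and of H2ac1 and H2bc1 are the same bases. That of H2ac20 lies within the annotated H2bc21 gene. The windows with a match are thus not all separate sites. CCAAT stood in 41 of 48 windows (85.4%, against 37.4% of all windows), in every H1, H2A, H2B and H3 window and in 3 of 10 H4 windows. TATAAA stood in 28 of 48 (58.3%, against 13.6%). These matches lay anywhere from position -250 (H4c6) to 41 (H4c1) relative to the start, so they are not all at the place of a TATA box. Both strands were searched and a match of letters is not a measured binding site.

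With crofelemer most histone genes stood above their level without it, in MDI-exposed and in control lungs. The median over the 53 genes on each array was 13.32, 11.49 and 13.16 in crofelemer-treated MDI lungs, against 9.25 to 11.06 (median 10.42) in the 13 MDI lungs without it. It was 12.41, 13.38, 12.31, 13.28 and 12.41 in crofelemer-treated control lungs, against 8.68 to 9.65 (median 9.06) in the 6 control lungs without it. Each crofelemer array lay above every C57BL/6 array without the drug, the lowest being the second crofelemer MDI array at 11.49.

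**Figure D1:**
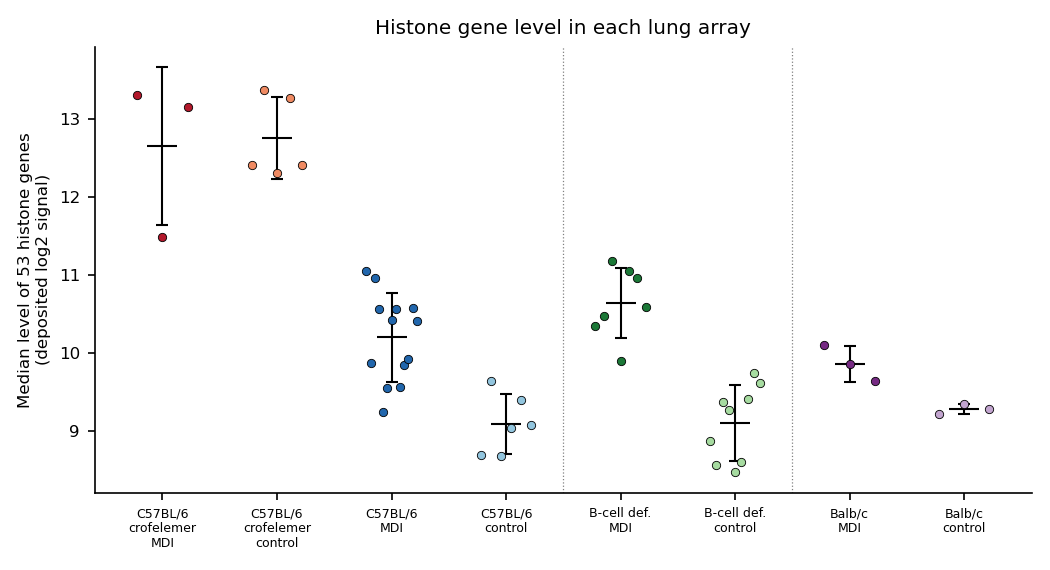
Each point is 1 array and its height is the median deposited log2 signal of the 53 histone genes, with group mean and SD in black. The crofelemer arrays (11.49 to 13.38) sit above all other C57BL/6 arrays, and dotted lines part the strains, whose levels are not comparable.

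Gene by gene, the difference of group means (crofelemer minus none) had a median of 2.37 in MDI lungs, with a range of -0.68 to 3.72, against 0.044 for all probe sets. In control lungs the median was 3.10, with a range of -0.83 to 5.65, against 0.034 for all probe sets. In MDI lungs all crofelemer arrays lay above all others for 33 of 53 genes (4.98% of all probe sets did so), and 49 differed by at least 1 (2.16%). In control lungs the groups were separate in this direction for 48 genes (7.6%), and 48 differed by at least 1 (2.79%). The members were chosen for this contrast, so nothing is read from those shares. Among the 20 probe sets with the largest difference, 13 were histone genes in MDI lungs and 15 in control lungs. Among the top 100, 43 and 42 were.

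Every family was higher with crofelemer by its median. Median differences in control lungs were 4.17 for H2A, 3.89 for H3, 2.86 for H1, 2.84 for H2B and 2.62 for H4. In MDI lungs they were 2.96 for H3, 2.41 for H2A, 2.33 for H4, 2.24 for H2B and 2.07 for H1. By position, control-lung medians were 3.53 on chromosome 3, 3.11 in the proximal and 3.03 in the distal chromosome 13 cluster. For 47 of 53 genes the difference was larger in control than in MDI lungs. The matching share of all probe sets was not counted, so nothing is read from this count.

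**Figure D2:**
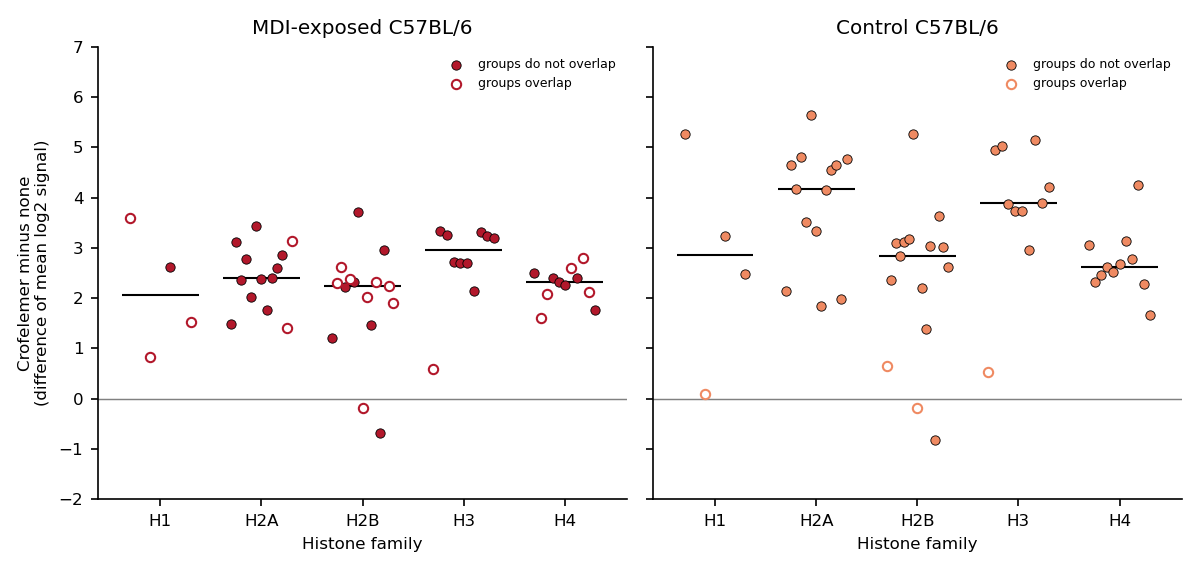
Each point is 1 histone gene, placed by family, and its height is crofelemer minus none in mean log2 signal, with black lines at family medians. Filled points are genes whose groups do not overlap, and the 2 points below 0 in each panel are H2bc4 and H2bc21.

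The same 6 genes led in both settings: H2bc18, H1f1, H2ac15, H3c10, H3c6 and H3c11. H2ac15, an H2A gene, had 15.77, 13.50 and 15.51 with crofelemer and MDI, against 10.52 to 13.49 (median 11.48) with MDI alone. In controls it had 14.88, 15.55, 14.83, 15.86 and 14.86 with crofelemer, against 8.74 to 10.90 (median 9.37) without. H2ac15 thus differed by 3.44 in MDI and 5.65 in control lungs, and the second crofelemer MDI array lay just above the highest MDI array without the drug.

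H2bc18, an H2B gene of the chromosome 3 cluster, had 13.32, 10.74 and 13.16 with crofelemer and MDI, against 7.61 to 10.66 (median 8.39) with MDI alone. Its control lungs had 12.11, 13.32, 11.86, 13.28 and 11.76 with crofelemer, against 6.49 to 8.08 (median 7.15) without. These are differences of 3.72 and 5.26 with groups that do not overlap.

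H1f1, which encodes linker histone H1.1, had 11.44, 8.73 and 11.10 with crofelemer and MDI, against 5.72 to 8.82 (median 6.99) with MDI alone. In controls it had 10.03, 11.79, 9.75, 11.49 and 10.31 with crofelemer, against 4.95 to 6.46 (median 5.31) without. The differences were 3.59 and 5.28, and the second crofelemer MDI array lay within the range of the MDI arrays without it.

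Among H3 genes, H3c6 had 14.94, 13.03 and 14.73 with crofelemer and MDI, against 9.93 to 11.93 with MDI alone, a difference of 3.31. In controls it had 14.42, 15.00, 14.06, 15.07 and 14.51, against 9.07 to 10.56, a difference of 5.14. H3c10 (3.34 in MDI and 4.96 in control lungs) and H3c11 (3.26 and 5.02) also had groups without overlap. H3 genes code for nearly the same protein and share most of their sequence, so probe sets of one may read RNA of another. This uncertainty holds for all 5 families: H3c14 and H3c15 had equal values on all 49 arrays and are 1 measurement that enters the counts as 2 genes. Taken once, they leave 52 genes, with 24 called in C57BL/6 (7 of 9 H3 genes) and 45 higher in B-cell deficient mice.

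Exceptions to the pattern were few, and were chosen for mention after their values were seen. H2bc4, an H2B gene, had 13.11, 13.36 and 13.12 with crofelemer and MDI, against 13.54 to 14.43 (median 13.81) with MDI alone. In controls it had 13.22, 13.52, 12.81, 13.64 and 13.34 with crofelemer, against 13.87 to 14.31 (median 14.14) without. It was the 1 member whose crofelemer arrays all lay below the others, with differences of -0.68 and -0.83 (8.87% and 12.7% of all probe sets were separate in this direction).

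H2bc21 had 6.54, 6.84 and 6.50 with crofelemer and MDI, against 6.16 to 7.38 with MDI alone, and its differences of -0.20 and -0.19 came with overlapping groups. H1f2, the gene for linker histone H1.2, differed by 0.83 in MDI and 0.09 in control lungs, and H3c1 by 0.59 and 0.53. H2bc1, known as a testis histone, differed by 1.20 and 0.66. H3c1 and H2bc1 are dim, with mean signals of 3.76 and 5.33 over the 49 arrays, against 7.09 for the median probe set. Their small differences are therefore not read further. In control lungs H2bc21, H1f2, H3c1 and H2bc1 were the 4 members with overlapping groups.

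The H2A neighbours of H2bc4 and H2bc21 had higher means with crofelemer. H2ac6, whose window is shown above and whose transcription start lies 239 bases from the nearest annotated base of H2bc4, had 8.55, 7.84 and 8.00 with crofelemer and MDI, against 5.78 to 8.71 with MDI alone. In controls it had 9.28, 8.56, 7.62, 8.56 and 8.04 with crofelemer, against 6.15 to 6.78 without, and the differences were 1.41 and 1.98. H2ac20, 191 bases from H2bc21, differed by 2.37 and 3.33 with separate groups in both settings. H2ac6 and H2ac20 were chosen as neighbours of the exceptions. In control lungs the H2A gene had the larger difference in all 7 divergent pairs, for example 5.65 for H2ac15 against 3.17 for H2bc15 and 4.15 for H2ac22 against 2.20 for H2bc22. In MDI lungs it had the larger difference in all but the pair of H2ac13 (2.02) and H2bc13 (2.22).

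**Figure D3:**
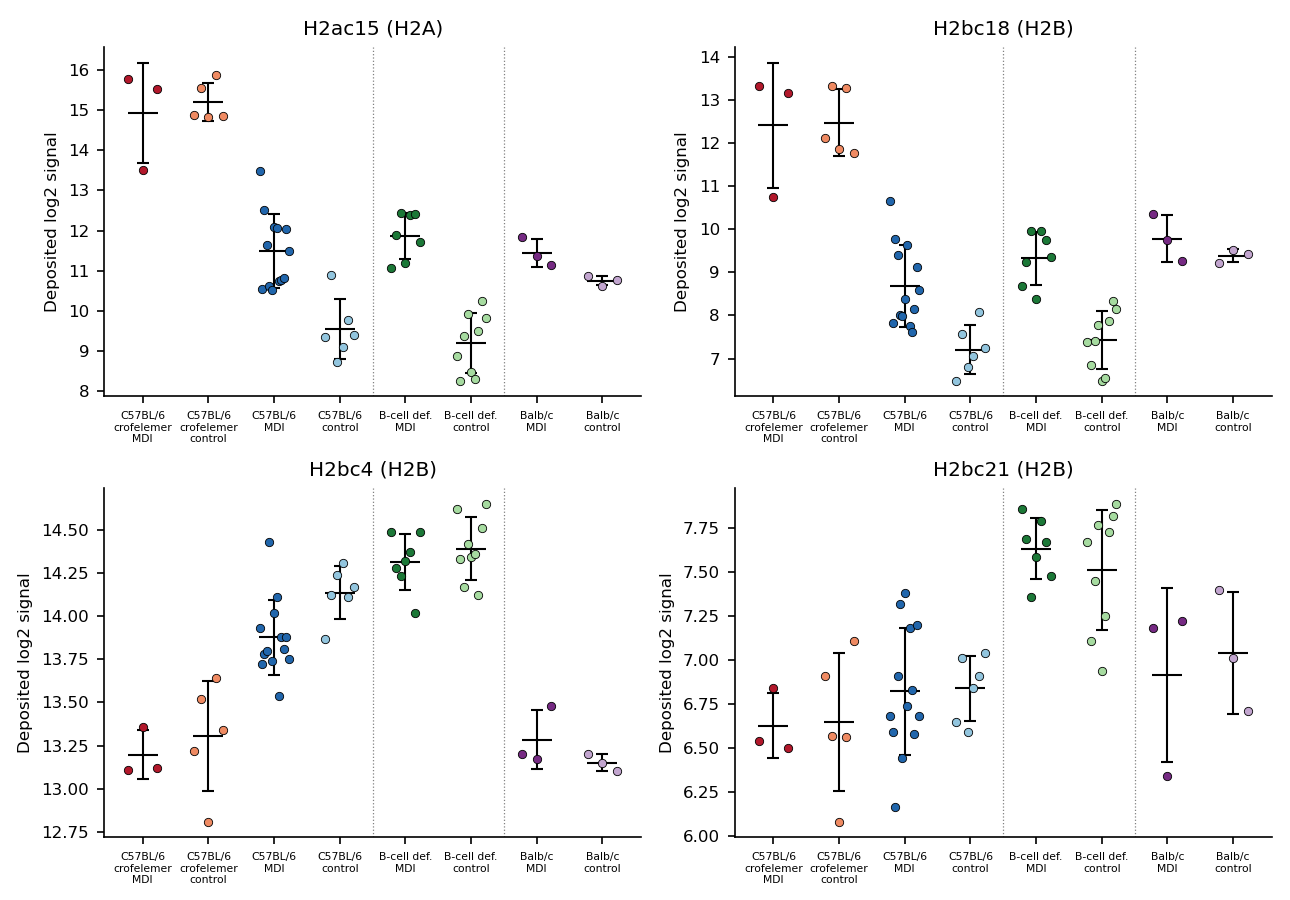
Points are single arrays and their height is the deposited log2 signal of H2ac15, H2bc18, H2bc4 and H2bc21, with group mean and SD. H2ac15 and H2bc18 are high on crofelemer arrays, H2bc4 is lower there than on the C57BL/6 arrays of the same exposure without the drug, and H2bc21 overlaps.

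Within crofelemer-treated mice, MDI against control asked whether the airway exposure moved these genes under the drug. No histone gene passed limma's test at an adjusted p under 0.05 (0.054% of all probe sets did, 0.036% higher and 0.018% lower), and 1 had an unadjusted p under 0.05. The median difference (MDI minus control) was -0.11, against -0.001 for all probe sets, and 18 of 53 values were positive. H2bc1 had the smallest adjusted p, with 6.32, 5.97 and 6.73 in MDI lungs, against 5.73, 5.42, 5.32, 5.70 and 5.82 in control lungs. Its groups did not overlap (1.8% of all probe sets were separate and higher, 1.16% separate and lower), and its change of 0.74 ± 0.22 (SE) had an adjusted p of 0.25 in limma. H2ac1, the testis H2A gene divergent from H2bc1, had a value of -0.28 (limma adjusted p = 0.79) and H1f2 of 0.36 (adjusted p = 0.82).

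In C57BL/6 mice without the drug, many histone genes were higher with MDI. Of 53, 25 rose and none fell at an adjusted p under 0.05 (14.5% of all probe sets were called, 5.3% higher and 9.23% lower), and 34 had an unadjusted p under 0.05. The median change was 0.60, against 0.007 for all probe sets. H2A and H3 genes were called most often, at 10 of 13 and 8 of 10. Of H4 genes 4 of 11 rose, of H1 genes 1 of 4, and of H2B genes 2 of 15. Within submission block 3 (the third run of consecutive records), which holds 1 MDI and 2 control arrays, the median change was 0.58. Calls are not read from a fit with 1 MDI array. With arrays centred on their median, 1573 of 3182 called probe sets were higher, against 1176 of 3225 on the deposited scale. These arrays also enter the contrasts that chose the genes.

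**Figure D4:**
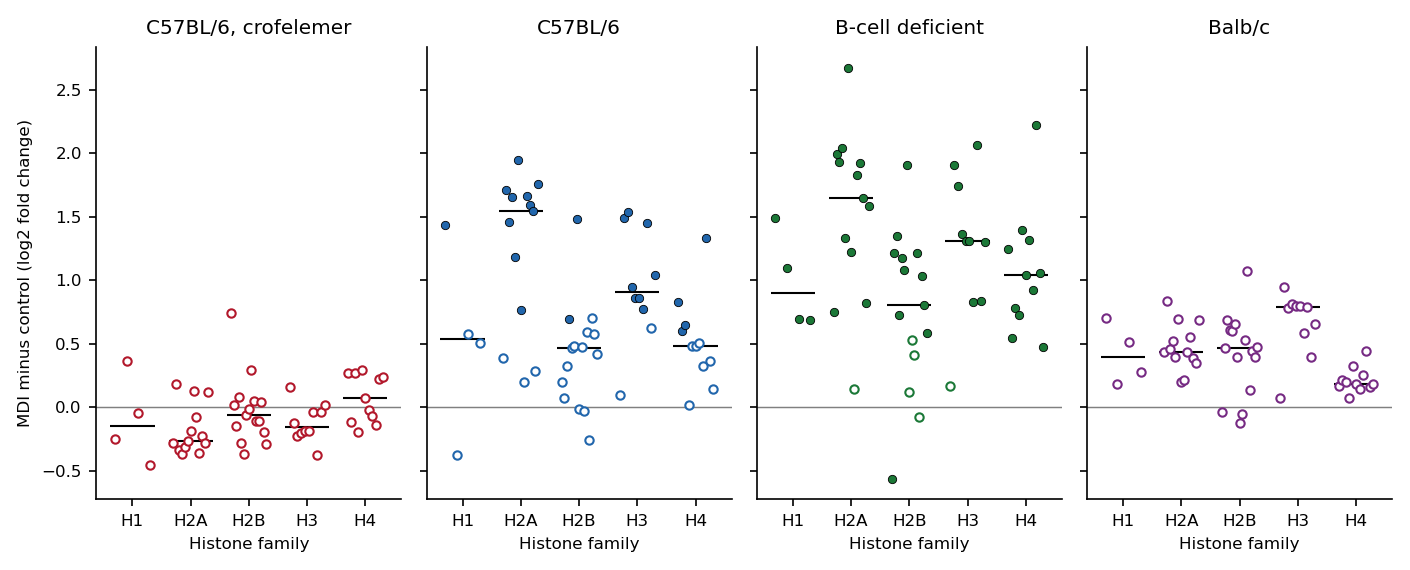
Each point is 1 histone gene and its height is the log2 fold change of MDI against control in the 4 kinds of mice, with family medians in black. Filled points passed limma's test: none under crofelemer, 25 in C57BL/6, 47 in B-cell deficient and none in Balb/c mice.

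The 6 largest changes among those called in C57BL/6 were all H2A genes. H2ac15 rose by 1.95 ± 0.34 (SE, limma adjusted p = 7.3e-05), over the array values given above. H2ac22 had 13.60 to 15.70 (median 14.22) in MDI lungs, against 12.23 to 13.59 (median 12.56) in control lungs, a change of 1.67 ± 0.23 (limma adjusted p = 8.5e-07). It was the 1 member whose MDI and control arrays did not overlap (0.459% of all probe sets were separate and higher, 0.617% separate and lower).

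H2ac8 had 9.28 to 13.01 (median 10.42) in MDI lungs, against 8.48 to 9.56 (median 8.62) in control lungs. H2ac10 had 11.50 to 14.09 (median 12.41), against 10.19 to 11.66 (median 10.67). Their changes were 1.76 and 1.71. H2ac12 had 11.96 to 14.01 (median 12.52) in MDI lungs, against 10.61 to 12.19 (median 10.90), a change of 1.66. H2ac24 had 12.72 to 14.66 (median 13.18) in MDI lungs, against 11.32 to 12.75 (median 11.57), a change of 1.59. For these 4 genes the groups overlapped in part, and the limma adjusted p lay between 3.2e-06 and 0.00017.

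Of the 7 divergent pairs, each H2A gene had a larger value than its H2B gene. H2bc15 had 0.48 beside 1.95 for H2ac15, H2bc8 0.57 beside 1.76 for H2ac8, H2bc22 0.47 beside 1.67 for H2ac22, and H2bc12 0.32 beside 1.66 for H2ac12. H2bc11 had 0.07 beside 1.46 for H2ac11, and H2bc1 had 0.20 beside 0.39 for H2ac1. None of these 6 H2B genes was called. H2bc13, at 0.69 beside 1.18 for H2ac13, was the 1 H2B gene of a pair to pass the test (limma adjusted p = 0.043), and the differences within pairs were not tested. H2bc4 had a change of -0.26 (limma adjusted p = 0.080) and H2bc21 of -0.02 (adjusted p = 0.96).

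In B-cell deficient mice most histone genes were higher with MDI. Of 53, 46 rose and 1 fell (36.9% of all probe sets were called, 16.2% higher and 20.7% lower), with a median change of 1.18, against -0.059 for all probe sets. MDI arrays lay above all control arrays for 24 genes (4.67% of all probe sets) and below them for none (2.36%). All 4 H1 and all 11 H4 genes rose, with 12 of 13 H2A, 9 of 10 H3 and 10 of 15 H2B genes. All 9 control arrays came from submission block 2, and the MDI arrays came from block 1 (4) and block 2 (3). With submission block as a term 43 genes rose and none fell, and 4499 of all probe sets were called, 2225 of them higher. Of the 9 control arrays 4 had a narrow spread (SD over probe sets under 3). Without these, 29 genes rose and none fell, and 3780 of all probe sets were called, 1765 of them higher.

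H2ac15 had 11.08 to 12.43 (median 11.89) in MDI lungs of B-cell deficient mice, against 8.27 to 10.25 (median 9.37) in control lungs, a rise of 2.67 ± 0.35 (SE, limma adjusted p = 6.3e-08). H4c6 had 10.26 to 11.92 (median 11.60), against 7.93 to 10.12 (median 9.27), a rise of 2.22 ± 0.36 (limma adjusted p = 5.2e-06). H3c6 had 10.80 to 12.19 (median 11.79), against 8.65 to 10.37 (median 9.78), a rise of 2.07 ± 0.28 (limma adjusted p = 1.0e-07). Every MDI array exceeded every control array for all of these. H2ac12, H2ac10 and H2ac11 rose by 2.04, 1.99 and 1.93, also with separate groups.

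The 1 gene that fell was H2bc1, with 4.78 to 5.66 (median 5.00) in MDI lungs, against 5.31 to 6.02 (median 5.68) in control lungs. The groups overlapped, the change was -0.56 ± 0.15 (SE, limma adjusted p = 0.0031), and the call was lost without the 4 narrow control arrays (-0.35), with submission block as a term (-0.44) and in block 2 alone (-0.44). The 25 genes called in C57BL/6 mice all rose in B-cell deficient mice too, where a further 21 rose. The matching share of all probe sets was not counted, so nothing is read from this overlap. Called in neither were H2ac21, H2bc4, H2bc21, H2bc22, H2bc23 and H3c1. Among these, H2ac21, H2bc21 and H3c1 had mean signals below that of the median probe set.

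The effect of MDI was then compared between strains, as the log2 change of B-cell deficient mice less the log2 change of C57BL/6 mice. It differed from 0 for 3 members (20.3% of all probe sets were called, 9.27% higher and 11% lower), and 8 had an unadjusted p under 0.05. The median over 53 members was 0.36. With arrays centred on their median, 1476 of 5173 called probe sets were higher, against 2059 of 4502 on the deposited scale, and 3 members were called under both. H1f2 differed most. It had 9.30 to 9.79 (median 9.70) in MDI lungs of B-cell deficient mice, against 7.77 to 9.24 (median 8.77) in their controls, and 7.89 to 9.26 (median 8.41) in MDI lungs of C57BL/6 mice, against 8.44 to 9.53 (median 8.76) in theirs. H1f2 thus changed by 1.10 in B-cell deficient mice, where the groups were separate, and had a value of -0.38 in C57BL/6 mice, where it was not called. The difference was 1.47 ± 0.28 (SE, limma adjusted p = 0.00043).

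H4c18, an H4 gene, had a difference of 0.92 ± 0.30 (limma adjusted p = 0.026), from changes of 1.40 and 0.48. H2bc1 had a difference of -0.76 ± 0.21 (limma adjusted p = 0.0097), from changes of -0.56 and 0.20, and its call was lost with quantile normalization (-0.49) and with submission block as a term (-0.67). The call of H4c18 was lost without C57BL/6 control array 2 or 5 (0.85 in each case). Without the 4 narrow control arrays H1f2 alone was called.

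In Balb/c mice no histone gene was called (0.302% of all probe sets were, 0.261% higher and 0.0405% lower), with 2 at an unadjusted p under 0.05, though 50 of 53 changes were positive. The median change was 0.43, against -0.007 for all probe sets, and the 3 MDI arrays lay above the 3 control arrays for 32 genes (7.48% of all probe sets) and below them for none (6.83%). A fit on these 6 arrays alone called 5, all higher. It also called more of all probe sets, 269 (206 higher) against 67 (58 higher) in the model of 8 groups. H3c13 had 12.30, 12.53 and 12.69 across the MDI arrays in ascending order, against 11.55, 11.60 and 11.94 across control arrays, a change of 0.81 ± 0.40 (SE, limma adjusted p = 0.87). H2bc3 had a value of 1.07 (adjusted p = 0.88) and H3c14 of 0.80 (adjusted p = 0.89), both with separate groups. When the log2 change of C57BL/6 mice was subtracted from that of Balb/c mice, no member was called (0.027% of all probe sets were, 0.0135% in each direction), 6 had an unadjusted p under 0.05, and the 3 smallest p belonged to H2ac22 (-1.23), H2ac12 (-1.14) and H2ac4 (-1.16), at adjusted p of 0.42 to 0.53 in limma.

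Other genes of DNA replication and division, the pathway in which replicative histones act, were counted by lists, to be read against the share of all probe sets that rose (5.3% in C57BL/6 and 16.2% in B-cell deficient mice) or fell (9.23% and 20.7%). Of 19 mitosis genes 18 rose and none fell with MDI in C57BL/6 mice, and in mice without B cells 18 rose. Mki67, which encodes the proliferation antigen Ki-67, rose by 2.19 in C57BL/6 and 2.01 in B-cell deficient mice, and Kif11, a spindle motor, rose by 1.60 in C57BL/6 mice. Of 23 DNA replication genes 8 rose in C57BL/6 and 13 in B-cell deficient mice and none fell, with Mcm6, a subunit of the replicative helicase, up 0.92 and 1.33 and Rrm2, a ribonucleotide reductase subunit, up 1.07 and 1.53. Median changes were 1.25 for mitosis and 0.34 for replication genes in C57BL/6 mice and 1.30 and 0.51 in B-cell deficient mice. Neither list had a gene called by limma in Balb/c mice or under crofelemer.

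Factors that transcribe and process histone messages were called in both directions, and so few calls are not set apart from the same shares of all probe sets. With MDI, 3 of 17 rose and 2 fell in C57BL/6 mice, and 6 rose and 1 fell in B-cell deficient mice. Npat, the cyclin E and CDK2 target that activates histone genes, rose by 0.45 in C57BL/6 mice. Slbp, which binds the stem-loop of histone messages, rose by 0.61 and Hinfp, an activator of H4 genes, by 0.64 in B-cell deficient mice. Of 19 histone chaperones, 3 rose and 2 fell in C57BL/6 and 5 rose and 1 fell in B-cell deficient mice, led by Asf1b at 0.77 and 1.01.

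The crofelemer values of these lists are given without a test, and since the histone genes were chosen for this contrast, the sizes of the lists' values and theirs are not compared. The median difference was 0.72 in MDI lungs and 0.96 in control lungs for DNA replication genes, 0.46 and 1.50 for mitosis genes, and 0.35 and 0.34 for transcription and processing factors. For chaperones it was 0.06 and 0.19. In MDI lungs 4 of 19 chaperones were separate and lower (8.87% of all probe sets) and 1 separate and higher (4.98%). In control lungs 4 were separate and lower (12.7%) and 4 separate and higher (7.6%). Among those lower was Atrx, a chromatin remodeller, at -2.06 in MDI and -1.67 in control lungs. In MDI lungs no DNA replication or mitosis gene had separate groups (4.98% of all probe sets were separate and higher), and in control lungs 12 of 23 and 9 of 19 did, all higher with crofelemer (7.6%). The mean level of the mitosis list was 7.73 to 9.11 with crofelemer and MDI, against 7.44 to 8.90 with MDI alone. It was 7.93 to 9.48 with crofelemer and control, against 6.54 to 7.85 in controls without crofelemer. The mitosis levels thus overlapped in MDI lungs and did not overlap in control lungs. Plk1, a mitotic kinase, differed by 2.64 in MDI and 3.95 in control lungs, and Rrm2 by 1.95 and 2.78.

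The list of histone variants had median differences of 0.26 in MDI and 0.60 in control lungs over 14 genes. H2ax, a variant on that list known to give both a stem-loop and a polyadenylated message, had the largest difference on the list at 2.28 in MDI and 3.34 in control lungs. It had 11.97, 13.64 and 14.04 with crofelemer and MDI in ascending order, against 10.06 to 12.38 with MDI alone. H2ax also rose with MDI, by 0.97 in C57BL/6 and 1.21 in B-cell deficient mice, the largest rise on the list in both. Of the 14 variants 3 rose and 1 fell in C57BL/6 mice (5.3% of all probe sets rose and 9.23% fell). In B-cell deficient mice 6 rose and 5 fell (16.2% and 20.7%).

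**Figure D5:**
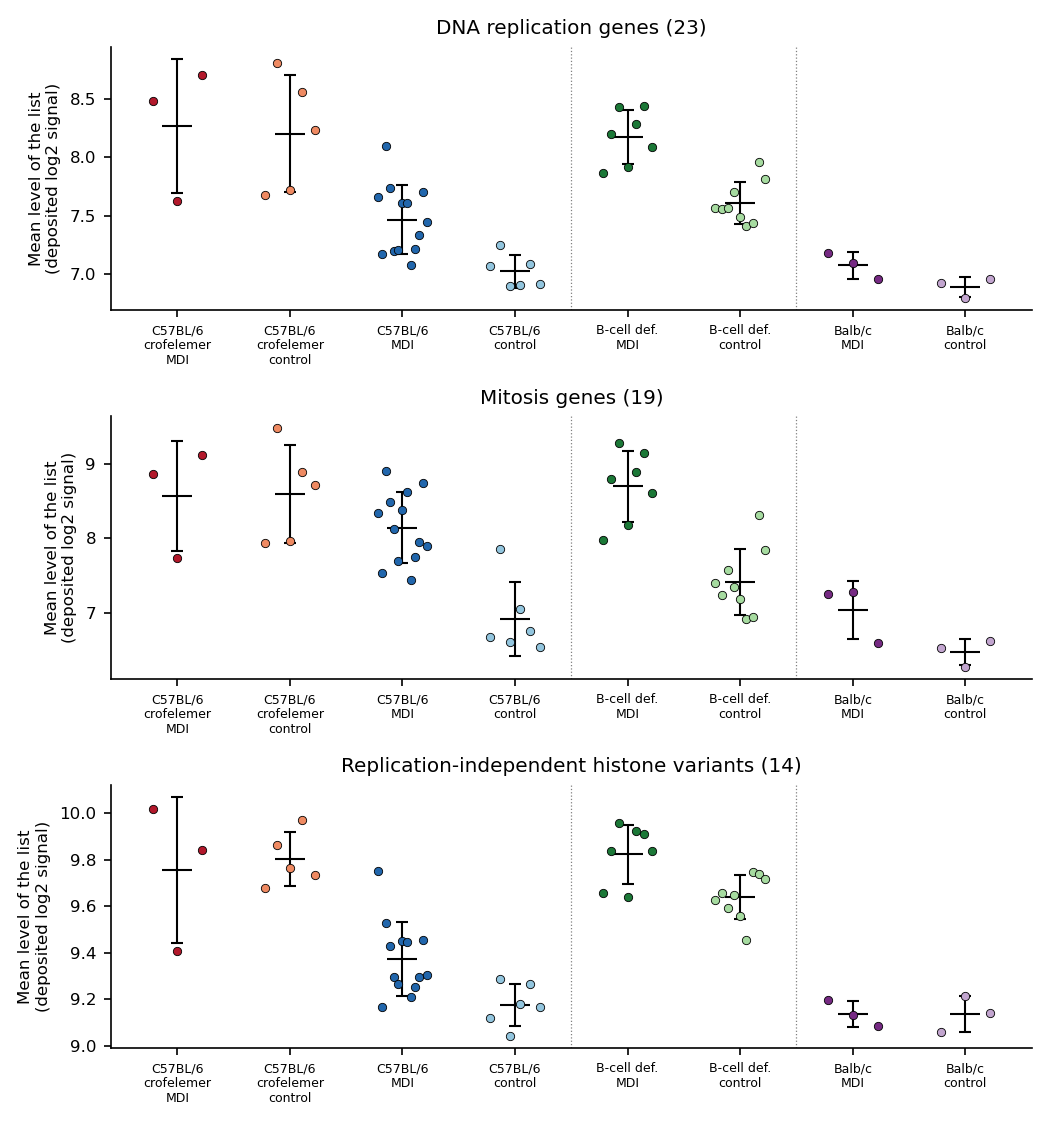
Each point is 1 array and its height is the mean deposited log2 signal of the 23 DNA replication genes, 19 mitosis genes or 14 histone variants, with group mean and SD in black. Mitosis levels of crofelemer MDI arrays (7.73 to 9.11) overlap those of MDI arrays (7.44 to 8.90), those of crofelemer control arrays (7.93 to 9.48) lie above those of control arrays (6.54 to 7.85), and dotted lines part the sets.

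Several lists of cell type markers differed between the same groups, and others differed little. B cell markers had a mean level of 6.04 to 6.40 with crofelemer and MDI, against 7.23 to 8.72 with MDI alone. They had 6.19 to 6.46 with crofelemer and control, against 7.56 to 8.61 in controls without crofelemer. Separate and lower were 5 of 7 in MDI lungs (8.87% of all probe sets) and 7 of 7 in control lungs (12.7%). Endothelial markers had 13.0 to 13.5 and 13.1 to 13.8 with crofelemer, against 13.4 to 14.2 with MDI alone and 14.1 to 14.7 in controls without crofelemer. Macrophage markers had 11.1 to 11.7 and 10.7 to 11.2 with crofelemer, against 10.5 to 11.6 with MDI alone and 9.66 to 10.8 in controls without crofelemer. Neutrophil markers had 9.26 to 10.8 with crofelemer and MDI, against 8.22 to 12.2 with MDI alone, and 8.83 to 9.98 with crofelemer and control, against 9.65 to 12.7 without. T cell markers had 6.87 to 7.46 and 6.78 to 7.34 with crofelemer, against 7.40 to 8.53 with MDI alone and 7.11 to 7.60 in controls without crofelemer. Median differences in MDI and control lungs were 0.05 and -0.18 for erythroid and 0.11 and -0.63 for platelet markers. For lung epithelium markers they were -0.19 and -0.17, against 0.044 and 0.034 for all probe sets. In MDI lungs no erythroid, platelet, neutrophil or macrophage marker had separate groups, and 2 of 8 endothelial and 2 of 7 T cell markers were separate and lower. Of 7 lung epithelium markers there, 2 were separate and lower and 1 separate and higher. In control lungs 7 of 8 endothelial, 4 of 7 neutrophil, 3 of 6 platelet, 2 of 7 T cell and 2 of 7 epithelium markers were separate and lower. Separate and higher there were 4 of 7 macrophage and 1 of 3 erythroid markers (7.6% of all probe sets). The part of these shifts in the histone differences was not tested.

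Beside the histone genes that rose with MDI, 5 of 7 macrophage and 3 of 7 T cell markers rose and 6 of 8 endothelial markers fell in C57BL/6 mice, where 3 of 7 neutrophil markers fell and 1 rose and 3 of 7 lung epithelium markers fell (5.3% of all probe sets rose and 9.23% fell). In B-cell deficient mice 6 of 7 macrophage and all 7 T cell markers rose and 4 of 8 endothelial markers fell and 1 rose, 3 of 7 lung epithelium markers fell and 2 of 7 neutrophil markers rose (16.2% of all probe sets rose and 20.7% fell). Macrophage markers had a mean level of 11.1 to 11.7 in MDI lungs of these mice, against 9.26 to 10.3 in their controls, and T cell markers 8.54 to 8.95, against 7.23 to 7.85. Their part in the histone changes was not tested.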

How the data were processed

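RNA of mouse lung was measured on 1-colour arrays, from 250 ng of total RNA per the labels' protocols. The authors deposited log2 values for 22206 probe sets, written with Transcriptome Analysis Console per the submitters' processing notes. The log base is inferred from the range of the values (1.86 to 20.91, 2 decimals), and how they were normalized is not given in the sources used here. Platform annotation named 19572 probe sets with 1 symbol and 2634 with none. All 53 members matched RefSeq (GRCm38.p6).

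Members, gene lists and comparisons were chosen with earlier results of these data known. Members with array values are the 6 largest changes among those called (or the 3 smallest adjusted p), and the 6 largest crofelemer differences. Up to 4 genes per list are named.

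MDI against control was tested with limma 3.58.1 in R 4.3.3 on the deposited values: 1 model of 8 group means over 49 arrays (41 residual degrees of freedom), eBayes with an intensity trend, 2-sided, Benjamini-Hochberg over all probe sets, called at adjusted p under 0.05. The procedure was tested on simulated data. Crofelemer contrasts carry no test. Alternatives covered scaling, dim probe sets, array weights, arrays in the fit, submission blocks (runs of consecutive records), replicate numbers and single arrays left out. One C57BL/6 MDI array has a source label naming control products, while its other labels say MDI. Array number limits the precision.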

Additional observations from a re-analysis of the deposited data

Results flagged for a closer look

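The second C57BL/6 control array stood apart from the other 5 as the highest for 4 named genes, with a gap to its nearest neighbour over 0.625 of the group's range. It had 6.46 for H1f1 (others 4.95 to 5.37), 12.19 for H2ac12 (10.61 to 11.08), 9.56 for H2ac8 (8.48 to 8.72) and 10.52 for H4c6 (9.46 to 9.82). In all, 88 sets of values were examined, each against a limit for its group size (0.625 holds for this group), and 4 passed it, while chance gives about 5%. Groups of 3 or 13 arrays were not examined. Without this array MDI against control called 26 histone genes in C57BL/6 mice, against 25 with it, and the difference between B-cell deficient and C57BL/6 mice called 2, against 3, the call of H4c18 being lost.

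For 3 genes the change with MDI differed between B-cell deficient and C57BL/6 mice by limma's test: H1f2 by 1.47, H4c18 by 0.92 and H2bc1 by -0.76.

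The 2 arrays with contradicting labels also carried signal. The median of the histone genes was 11.18 on the array titled as the fourth MDI and crofelemer sample, whose drug label says none. It was 11.16 on the array titled as the thirteenth MDI sample, whose drug label says crofelemer. Both exceed the highest C57BL/6 control array (9.65) and the highest grouped C57BL/6 MDI array (11.06), and lie below the lowest crofelemer MDI array (11.49). Of 53 genes, 27 and 5 lay above all grouped C57BL/6 MDI arrays, and 41 and 47 lay below all 3 crofelemer MDI arrays. The matching shares of all probe sets were not counted, so nothing is read from these counts.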

How the results depend on the processing

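Of 53 genes, MDI against control called 25 in C57BL/6, 47 in B-cell deficient and none in Balb/c or crofelemer-treated mice, and 3 in the difference between B-cell deficient and C57BL/6 mice. Centring arrays on their median, quantile normalization, leaving out dim probe sets and taking the submission block as a term each kept these counts within 1.5 times. In Balb/c mice, fitting these arrays alone called 5 (269 of all probe sets) and the replicate block 4 (283 of all probe sets). In C57BL/6 mice the replicate block called 14 (930 of all probe sets) and submission block 1 alone 19 (2092), against 3225 of all probe sets in the main fit. Median histone changes were 0.72 and 0.69, against 0.60 in the main fit. Block 3 alone, which holds 1 MDI array, had a median change of 0.58. In B-cell deficient mice block 2 alone called 48 (4358 of all probe sets). Leaving out 4 narrow control arrays, chosen after seeing the data, called 29 (3780 of all probe sets). The difference between B-cell deficient and C57BL/6 mice had 8 calls with array weights and 1 without the narrow arrays, and no block holds all its groups. The causes were not tested. With single arrays left out, counts ranged over 0 to 0 in Balb/c and in crofelemer-treated mice and in the difference between Balb/c and C57BL/6 mice, 21 to 28 in C57BL/6, 42 to 49 in B-cell deficient mice and 2 to 7 in the difference between B-cell deficient and C57BL/6 mice. In that difference 5 were called without C57BL/6 control 3 or B-cell deficient control 7, 6 without C57BL/6 MDI 3 and 7 without C57BL/6 MDI 1. The median crofelemer difference ranged from 2.15 (without crofelemer MDI 1) to 2.89 (without crofelemer MDI 2) in MDI lungs and from 2.91 to 3.23 in control lungs, where block 3 alone gave 2.49. Of 2000 single-gene values under alternatives 1865 kept direction and call, 135 kept direction and lost the call, and none reversed. Calls that leaving out 1 array ended most often were H2bc9 (10 arrays) and H4c9 (9) in B-cell deficient and H2bc13 (9) in C57BL/6 mice. H4c18 lost its call in the difference with the replicate block (1.07) and the block term (1.05), and H2bc1 with quantile normalization (-0.49) and the block term (-0.67). Replicate numbers were not taken as pairs in the main fit. Correlations of same-numbered arrays were -0.14 to 0.03 in Balb/c, -0.22 to 0.18 in C57BL/6, -0.12 to 0.18 in B-cell deficient and -0.26 to 0.16 in crofelemer-treated mice. They exceeded 0.1 for 0 of 3, 4 of 6, 1 of 7 and 1 of 3 pairs in that order. These values do not decide whether C57BL/6 samples of the same number are paired.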
